A study of Mus musculus with 2 samples.

Results

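Late erythroid barcodes were taken from the 2 single-cell libraries of mouse femur as those with at least 200 and fewer than 1000 detected genes in which *Hba-a1*, *Hba-a2*, *Hbb-bs* and *Hbb-bt* together made up 50% or more of the UMIs. This gave 1668 of 10638 barcodes (15.7%), hereafter the members. Each library held femoral cells pooled from 6 C57BL/6J mice, male and 7 weeks of age, which were either untreated or calcitriol-injected (2.5 µg per kg of the active form of vitamin D, 3 daily intravenous injections, femurs taken 24 hours after the last). Marrow was flushed out, bone was digested with collagenase D and EGTA, and CD45-positive cells were removed on magnetic beads before loading. The untreated library held 1341 members among 6076 barcodes (22.1%, 95% exact interval 21.03 to 23.1) and the calcitriol-injected library 327 among 4562 (7.17%, 6.44 to 7.96). With 1 library per group there is no replicate check, no test was made, and the intervals given here cover counting error only.

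In the last steps of red cell formation the erythroblast stops dividing, condenses its nucleus and expels it. The reticulocyte that remains no longer transcribes. It carries a shrinking stock of messenger RNA, translates globin from it and removes mitochondria and ribosomes on the way to the mature red cell. The membrane skeleton, the haem pathway and the ubiquitin and autophagy machinery are the gene groups best known for these steps.

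The barcodes carried the markers of late erythroid cells, with little of other blood cells. *Bpgm*, which makes the 2,3-bisphosphoglycerate that lowers the oxygen affinity of haemoglobin, *Mkrn1*, a ubiquitin ligase, *Tmcc2*, *Xpo7*, a nuclear transport receptor, and *Slfn14*, an endoribonuclease known from reticulocytes, had been proposed as markers from earlier results of these libraries. At least 1 UMI of the 5 was present in 1337 of 1341 untreated and in 325 of 327 calcitriol members. Levels are given below as CPM, the UMIs of a gene scaled to a common total of non-globin UMIs, that is, without the 4 globins of the rule, and UMIs count transcript 3′ ends, so no length correction was made. The 5 markers summed to 50613 CPM in untreated members against 382 CPM in barcodes of that library with less than 50% globin, and to 53242 against 145 CPM in the calcitriol library. Barcodes with 50% or more globin held 81416 and 64923 CPM under 200 genes, and 4996 and 7504 CPM from 1000 genes on. In members under 400 genes *Bpgm* was at 29.6 (untreated) and 27.0 (calcitriol) UMIs per barcode and *Mkrn1* at 21.3 and 17.8. *Tmcc2* was at 1.345 and 0.84 there, *Xpo7* at 1.41 and 0.54 and *Slfn14* at 0.43 and 0.090. The members were chosen by their gene number and globin share, so these levels are a description.

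Markers of other blood cells were almost absent. The neutrophil list held 8 UMIs over all untreated and 5 over all calcitriol members, the lymphocyte list 19 and 3, the platelet list 19 and 3, the macrophage list 11 and 3, and the mast cell and basophil list 3 and 0. Averaged over both libraries, the most abundant gene of each was *Lcn2*, *Ebf1*, *Itga2b*, *Vcam1* and *Prss34*, respectively. *Ptprc*, which encodes CD45, *Cd79a*, *Cd3e*, *C1qa*, *Csf1r*, *Elane* and *Ppbp* were at 0 in both libraries. Bone and cartilage transcripts were present at low level: the stroma and osteoblast list, of which 15 of 16 genes were detected with *Sparc* as the most abundant, summed to 822 CPM in untreated and 1809 CPM in calcitriol members, against 68815 and 69881 CPM in the barcodes with less than 50% globin. The cartilage and synovium list, led by *Prg4*, summed to 266 and 974 CPM. The vessel list, led by *Tagln* with *Kdr* at 0, summed to 20.2 and 30.9 CPM. No doublet caller was run on these barcodes, and 0 of the member barcodes occurred in both libraries, of 8 that did in all.

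Among the 4 globins, which set the rule, *Hbb-bs* was the most abundant. It made up 52.9% of globin UMIs in untreated and 55.9% in calcitriol members, and *Hba-a1* 18.4% and 18.2%, *Hba-a2* 14.8% and 14.0%, *Hbb-bt* 13.9% and 11.9%. Embryonic globins were close to 0: *Hbb-y* had 6 UMIs in each library, *Hbb-bh1* 6 and 0, and *Hba-x* 1 and 1. *Hbq1b*, a theta globin, had 699 CPM in untreated and 864 CPM in calcitriol members.

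Members were split into 4 classes by gene number, starting at 200, 400, 600 and 800 genes. The untreated library held 400, 475, 367 and 99 members in them, and the calcitriol library 166, 62, 72 and 27. The lowest class took 29.8% of untreated (27.4 to 32.4) and 50.8% of calcitriol members (45.2 to 56.3). The class with the fewest genes did not have the fewest UMIs in either library. Median total UMIs from the lowest to the highest class were 11040.5, 9308, 9615 and 8294 in untreated and 10406.5, 8787, 9507 and 10636 in calcitriol members. It was the non-globin part that was smaller: its median ran 792.5, 1652, 2096 and 2425 UMIs in untreated and 789, 1694.5, 2310 and 2837 in calcitriol members, while the median globin share ran 92.8%, 82.2%, 77.9% and 71.5% and 92.3%, 79.9%, 75.6% and 73.1%. Mean globin UMIs per barcode were 10333.5 in the lowest and 7062 in the highest untreated class, and 9289 and 7979 in the calcitriol classes.

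The limits of the rule cut through a continuum in gene number and through a sparse zone in globin share. Just below the lower limit, 390 untreated globin-rich barcodes with 150 or more genes had a median of 528 non-globin UMIs, and 239 members with fewer than 250 genes had 716. At the upper limit, 20 untreated members with 950 or more genes had a median of 2580.5 and 18 barcodes within 50 genes above it had 2854.5. In calcitriol the corresponding numbers of barcodes were 132, 96, 3 and 4. Only 23 untreated and 3 calcitriol barcodes in the gene range had a globin share between 40% and 50%, and 21 and 4 members between 50% and 60%, whereas 1263 and 303 members had 70% or more.

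Gene number separated the members sharply in *Malat1*, a long non-coding RNA retained in the nucleus. In the untreated library it was at 6387, 65334, 52769 and 40800 CPM from the lowest to the highest class, and in the calcitriol library at 1357, 61902, 50283 and 47455 CPM. The class sums hide a switch between barcodes. With 200 to fewer than 250 genes, 238 of 239 untreated members held less than 1% *Malat1* among their non-globin UMIs and 182 held none, with a median of 716 such UMIs to read it from. From 350 to fewer than 400 genes 9 of 25 were under 1% and 16 at 3% or more, and from 400 to fewer than 450 genes 4 of 71 were under 1% and 64 at 3% or more. In the calcitriol library all 8 members from 350 to fewer than 400 genes were under 1%, 3 of 7 in the next step of 50 genes were, and none of the 10 after it. The intermediate range from 1% to 3% was thin in the lowest class, with 0 of 400 untreated and 1 of 166 calcitriol members. Beyond 450 genes, 19 of 870 untreated and 1 of 154 calcitriol members were under 1%. Below 200 genes the globin-rich barcodes had *Malat1* at 705 CPM (untreated) and 1454 CPM (calcitriol). *Neat1*, a second nuclear RNA, was at 124 against 1833 CPM in the 2 lowest untreated classes and at 110 against 3825 CPM in the calcitriol ones.

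**Figure D1:**
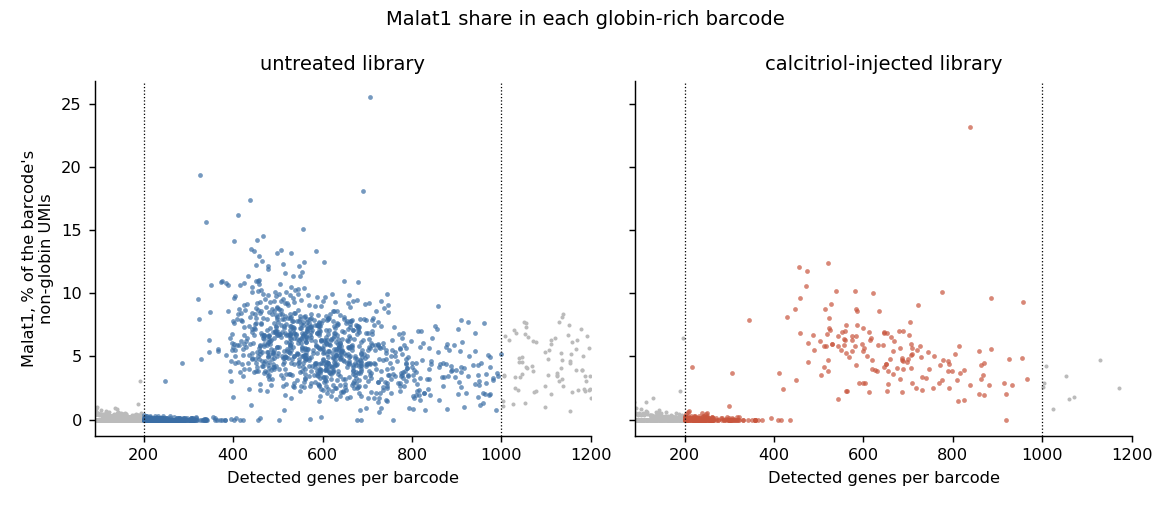
*Malat1* as a percentage of non-globin UMIs (vertical axis) against detected genes (horizontal axis) for each globin-rich barcode, untreated left and calcitriol-injected right; coloured points are the members, grey points lie outside the limits of 200 and 1000 genes (dotted). Most points lie near 0 below 350 genes and mostly above 3% beyond 450 genes, with few between.

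To describe which transcripts persisted as gene number fell, the lowest class was set against the highest. Members were sparse near 400 genes, between these classes. In steps of 50 genes from 200, untreated members numbered 239, 92, 44, 25, 71 and 130. Calcitriol members numbered 96, 40, 22, 8, 7 and 10. The ratios thus compare members on either side of this sparse zone, and whether the change is gradual was not tested. Of 495 genes with at least 50 UMIs over both classes in each library, 52 (10.5%) were at least 2-fold higher with few genes in both libraries and 130 (26.3%) at least 2-fold lower. The median log2 ratio over the 495 genes was -0.14 in untreated and -0.20 in calcitriol members, and 71 genes had opposite signs in the libraries. Detection of each gene is itself part of gene number, so some loss of genes follows from the split. When gene number was counted over alternate genes and ratios were read on the genes left out, with the 25% of members lowest against the 25% highest in gene number, 55 of 647 measured genes were higher and 280 lower. Of these, 40 and 126 were among the 52 and 130.

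These ratios are shares of a shrinking pool. In UMIs per barcode the median log2 ratio was -1.81 in untreated and -2.01 in calcitriol members, 465 of the 495 genes were lower with few genes in both libraries, and 12 were higher in both (among them *Hbq1a*, *Bpgm*, *Pttg1*, *Ccndbp1*, *Slc25a39*, *Gm10371*, *Gabarapl2*, *Iscu*, *Oaz1*, *Snx15* and a *Fam220a* locus, ENSMUSG00000118332). All 12 belonged to the 52. A higher CPM below therefore means a transcript kept better than the average, and, except for those 12, not more copies per barcode in both libraries.

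*Bpgm* was the most abundant of the transcripts that persisted on both scales. It was at 35827, 14962, 9613 and 4942 CPM from the lowest to the highest untreated class and at 32892, 12985, 8718 and 6150 CPM in the calcitriol classes. The lowest class was above every other class in both libraries. The log2 ratio of lowest to highest was 2.86 (2.77 to 2.94) and 2.42 (2.28 to 2.56). In UMIs per barcode it was at 29.6 against 12.99 and at 27.0 against 17.7. *Hbq1a*, a theta globin outside the rule, had ratios of 3.41 (2.49 to 4.504) and 3.58 (1.97 to 5.90) at low level (409 against 38.4 CPM and 462 against 38.5 CPM). It had 10 and 3 UMIs in the highest classes and reached the UMI minimum through the lowest ones.

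*Alas2*, the erythroid enzyme that starts haem synthesis, was at 27678 against 7443 CPM in untreated and 26343 against 8410 CPM in calcitriol members, or 1.89 and 1.65 on the log2 scale, but in UMIs per barcode its difference was 0.22 in untreated and turned to -0.16 in calcitriol members. *Ubb*, a polyubiquitin gene, was at 48888 against 10640 CPM and 63847 against 22918 CPM, and per barcode at a log2 difference of 0.53 and -0.33. *Mkrn1* went the same way, with CPM ratios of 2.15 and 1.58 and per-barcode ratios of 0.48 and -0.23. Also among the 52 were *Gabarapl2*, an ATG8 protein of the autophagosome (1.96 and 2.06), *Slc25a39*, a mitochondrial glutathione carrier (2.15 and 1.83), *Iscu*, a scaffold for iron-sulfur clusters (1.89 and 1.86), *Ccndbp1* (2.30 and 2.12), *Pttg1*, securin (2.36 and 1.89), *Nusap1*, a spindle protein (1.43 and 2.65), *Ftl1*, ferritin light chain (1.53 and 2.07), and *Gpx1*, glutathione peroxidase (1.18 and 1.41), all as log2 ratios of CPM. Per barcode *Gpx1* was lower with few genes, at log2 differences of -0.49 and -0.40, *Ftl1* was at -0.14 and 0.25, and *Nusap1* was not higher in both libraries either.

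The lowest ratios were those of genes with few UMIs in the lowest class, most of which reached the UMI minimum only through the highest class, where they are high. *Resf1* was at 39.4 against 911 CPM in untreated and 7.33 against 976 CPM in calcitriol members. *Tmem14c*, a mitochondrial protein needed for haem synthesis, was at 24.2 against 549 and 22.0 against 732 CPM. *Itga4*, integrin alpha 4, was at 21.2 against 488 and 22.0 against 680 CPM. *Hmgb2*, a chromatin protein, was at 157 against 3743 and 66.0 against 912 CPM, and *Mki67*, a proliferation marker, at 87.8 against 2102 and 88.0 against 1130 CPM. *Chd2*, a chromatin remodeller, was at 24.2 against 423 CPM in untreated members and had 0 UMIs in the lowest calcitriol class, so that its ratio of at least 43.2-fold there is a bound. The lowest log2 ratios also held *Rsrp1* (-3.36 and -5.57), *Neat1* (-3.41 and -5.42), *Btg2*, an antiproliferative gene (-3.53 and -5.13), *Hspa5*, an endoplasmic reticulum chaperone (-2.45 and -6.15), *Sox6*, an erythroid transcription factor (-2.99 and -5.44), *Ermap*, an erythroid membrane protein (-3.96 and -4.43) and *Abcg2*, a porphyrin transporter (-4.07 and -4.30). The 5 chosen markers split: *Bpgm* and *Mkrn1* were higher with few genes, whereas *Tmcc2* (-2.10 and -3.71), *Xpo7* (-1.57 and -3.98) and *Slfn14* (-2.31 and -5.24) were lower. With a low class under 300 genes *Tmcc2* was at -3.75 and -4.26, *Xpo7* at -2.78 and -4.46 and *Slfn14* at -4.08 and -6.17. *Neat1* was then at -5.08 and -6.12. The gap between the libraries in these ratios was smaller with that class.

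**Figure D2:**
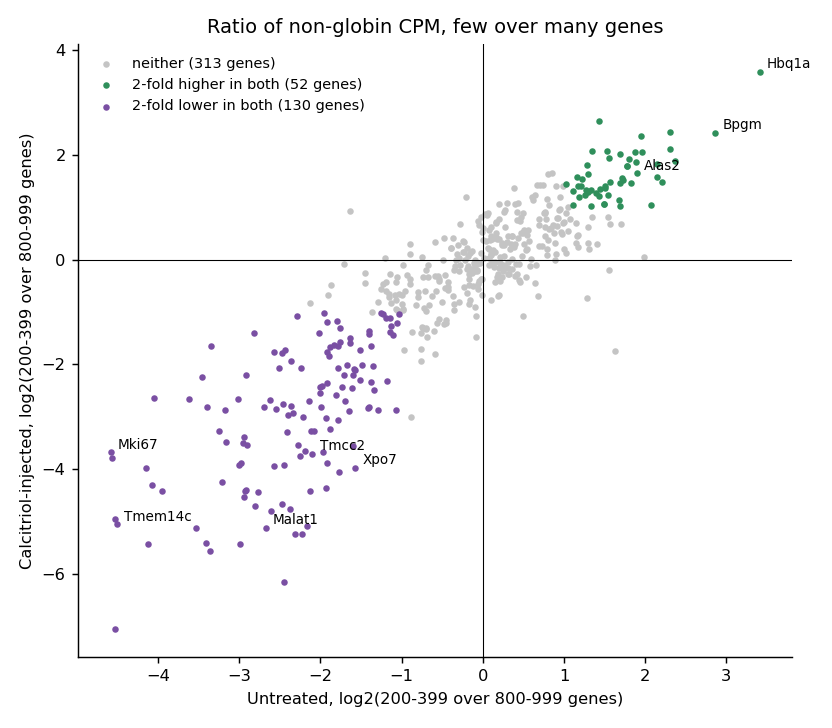
Log2 ratio of non-globin CPM in members with fewer than 400 genes over those with 800 or more, untreated library on the horizontal and calcitriol-injected library on the vertical axis, 1 point per gene for 495 genes. The 52 genes at least 2-fold higher in both libraries (green) and the 130 at least 2-fold lower (purple) lie in opposite corners, *Hbq1a* and *Bpgm* at one end and *Tmem14c* and *Mki67* towards the other.

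Promoters of 3 genes are given from RefSeq (GRCm38.p6) to set genes that were kept with few genes (*Alas2*, *Bpgm*) beside one that was not (*Slfn14*). Neither of the sequences marked below was found in the promoter of *Hbq1a*, which was also kept, or of *Malat1*, which was also not. Each runs from 250 bases before to 50 after the start, 5′ to 3′ on the gene's strand. Capitals mark the letters AGATAA (the core of a GATA site) or CCNCNCCC (the core of a KLF1 site) on either strand, where matches may overlap. *Alas2* is at chrX:150547167-150547466 (+), *Bpgm* at chr6:34476106-34476405 (+) and *Slfn14* at chr11:83286677-83286976 (-).
Alas2: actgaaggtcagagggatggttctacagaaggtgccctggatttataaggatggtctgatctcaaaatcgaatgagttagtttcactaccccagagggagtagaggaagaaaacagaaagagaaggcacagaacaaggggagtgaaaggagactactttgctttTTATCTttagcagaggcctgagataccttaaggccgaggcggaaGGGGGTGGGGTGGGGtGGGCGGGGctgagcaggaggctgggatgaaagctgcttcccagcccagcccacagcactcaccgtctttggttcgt
Bpgm: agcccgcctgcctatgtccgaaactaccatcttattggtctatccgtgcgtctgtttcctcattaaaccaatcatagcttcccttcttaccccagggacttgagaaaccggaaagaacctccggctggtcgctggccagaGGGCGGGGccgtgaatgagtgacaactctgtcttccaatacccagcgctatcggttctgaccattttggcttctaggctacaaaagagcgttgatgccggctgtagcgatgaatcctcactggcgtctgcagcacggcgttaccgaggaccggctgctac
Slfn14: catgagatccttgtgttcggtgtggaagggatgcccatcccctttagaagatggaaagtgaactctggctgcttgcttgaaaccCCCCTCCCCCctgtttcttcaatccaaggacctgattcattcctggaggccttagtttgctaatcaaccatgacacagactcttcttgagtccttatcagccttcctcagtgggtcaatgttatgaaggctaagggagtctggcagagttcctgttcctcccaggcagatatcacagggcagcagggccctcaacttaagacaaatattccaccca
AGATAA was found in at least 1 promoter of 6 of the 44 genes with a promoter among the 52 higher with few genes (13.6%), of 12 of 105 among the 130 lower ones (11.4%), of 37 of the 383 measured genes with a promoter (9.66%) and of 12.7% of all 27025 genes in the table. CCNCNCCC was found for 84.1% of the higher, 76.2% of the lower, 73.6% of the measured and 51.9% of all genes. A match is no more than a description of these letters.

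Classes between the ends gave more than 1 course. Taking globin-rich barcodes with 1000 or more genes, then the class from 400 and then the class from 200 genes, 492 genes had at least 50 UMIs at each step in each library. Of these, 13 (2.64%) were at least 2-fold higher at both steps in both libraries, 7 (1.42%) lower at both, 73 (14.8%) first higher and then lower, and 23 (4.67%) first lower and then higher. This grouping was made after the values had been seen.

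The 13 included *Bpgm*, *Alas2*, *Ube2l6*, *Sec61g*, *Gabarapl2*, *Slc25a39*, *Mpp1*, *Ccndbp1*, *Ghitm*, *Iscu*, *Slc48a1* and *Rec114*. *Slc48a1* is a haem transporter and *Ube2l6* a conjugating enzyme for the ubiquitin-like ISG15. *Bpgm* went from 763 to 14962 to 35827 CPM in untreated and from 1713 to 12985 to 32892 CPM in calcitriol barcodes. Below 200 genes *Bpgm* was higher still in CPM, at 44638 and 38752, as was *Alas2*, at 51012 and 47218 CPM. In UMIs per barcode both were lower there than in the lowest member class. *Bpgm* was at 15.6 against 29.6 in untreated and 12.6 against 27.0 in calcitriol barcodes, and *Alas2* at 17.9 against 22.85 and 15.4 against 21.6. *Mpp1*, a membrane skeleton protein, was not higher in CPM below 200 genes, at 3410 CPM in the lowest member class and 2059 CPM below 200 genes in untreated barcodes.

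The 73 genes with a maximum in the middle held the other 3 chosen markers. *Tmcc2* went from 1442 to 15455 to 1629 CPM in untreated and from 2315 to 22040 to 1027 CPM in calcitriol barcodes. *Xpo7* went from 508 to 11070 to 1708 and from 855 to 9925 to 660 CPM, and *Slfn14* from 588 to 4481 to 521 and from 674 to 4064 to 110 CPM. Further genes of this course were *Ppp1r15a*, which recruits a phosphatase to eIF2alpha (2185 to 6113 to 975 and 2387 to 8548 to 961 CPM), and *Jund* (2216 to 4704 to 1596 and 2766 to 8405 to 2068 CPM). *Pim1*, a kinase gene induced by erythropoietin, *Eif2ak1*, the haem-regulated eIF2alpha kinase, *Trim58*, a ubiquitin ligase of late erythroblasts, and *Rb1cc1*, which starts autophagosomes, had the same course.

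The 7 genes lower at both steps included 3 histone genes (*Hist1h1b*, *Hist1h2ae* and *Hist1h2ap*), *Mki67*, *Hmgb2* and *Odc1*. Of the other histone genes among the 492, 4 were lower at the second step only, 2 lower at the first only, 1 had a maximum in the middle and 1 passed at neither. *Hmgb2* went from 9418 to 516 to 157 CPM in untreated and from 8092 to 459 to 66.0 CPM in calcitriol barcodes. Of the 23 genes with a minimum in the middle, 12 encoded ribosomal proteins. Of the other ribosomal protein genes among the 492, 22 were lower at the first step only, 4 higher at the second only and 17 passed at neither. *Atp5h*, *Cox8a*, *Cox6a1* and *Cox7a2*, of oxidative phosphorylation, were also among the 23, but no list of such genes was fixed. *Rplp1* went from 868 to 287 to 848 and from 1338 to 296 to 1188 CPM. *Mgp*, matrix Gla protein, and *Mt1* also had a minimum in the middle, and both were more abundant in barcodes with less than 50% globin, *Mgp* at 7046 and 14204 CPM. Ribosomal protein genes summed to 120543 and 135216 CPM there. The part of RNA from other cells in this course was not tested.

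**Figure D3:**
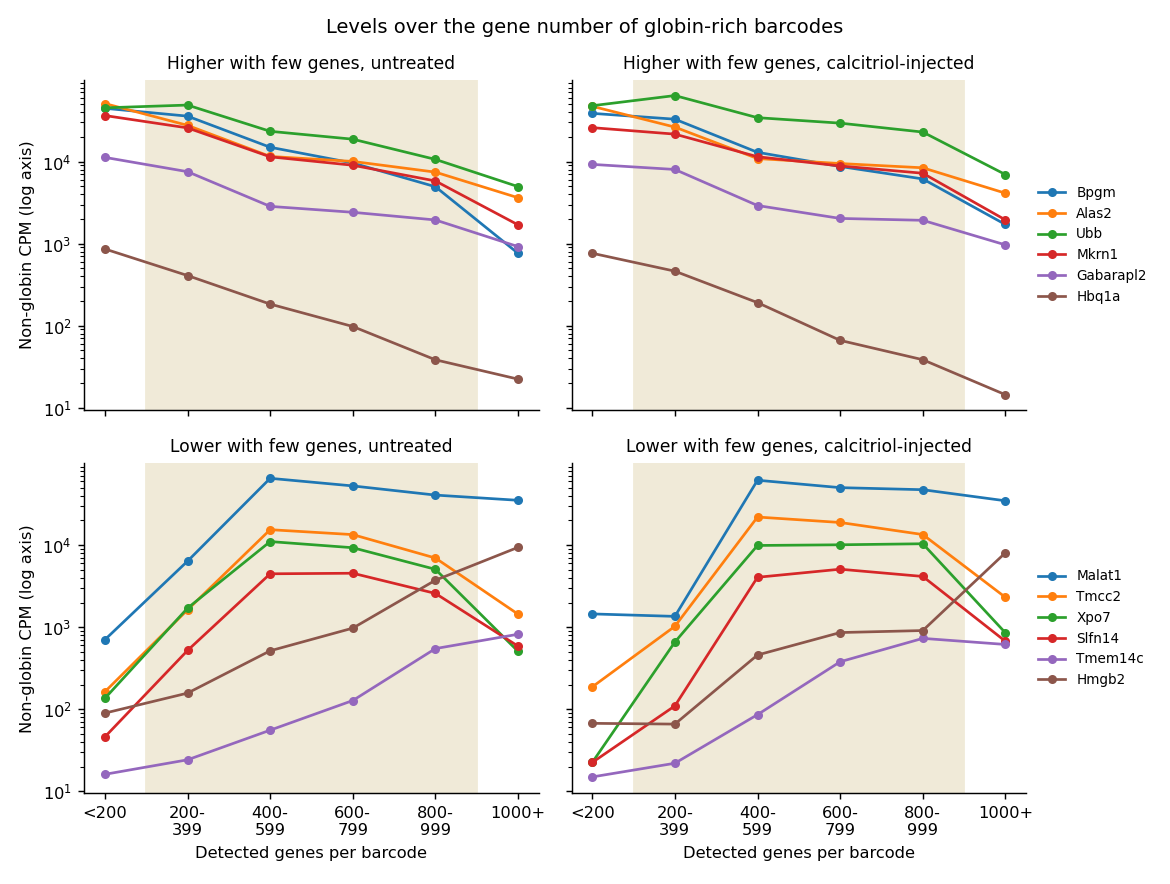
Non-globin CPM (log axis) of 6 genes higher (top) and 6 lower (bottom) with few genes over the gene number of globin-rich barcodes, untreated left and calcitriol-injected right; the shaded classes are the members. *Bpgm*, *Alas2*, *Gabarapl2* and *Hbq1a* climb towards few genes in each library, *Malat1*, *Tmcc2*, *Xpo7* and *Slfn14* peak between 400 and 1000 genes, and *Hmgb2* is highest from 1000 genes on.

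Summed over their genes, ribosomal proteins were at 41662, 21756, 30504 and 46311 CPM from the lowest to the highest untreated class and at 47999, 21571, 31775 and 50934 CPM in the calcitriol classes. The minimum was in the class from 400 genes in both. Of 62 measured genes none was 2-fold higher with few genes in both libraries and *Rps27*, *Rps27a* and *Rpl3* were lower, beside 10.5% higher and 26.3% lower over all 495 genes, with a median log2 ratio of -0.20 and -0.21. In UMIs per barcode the sum was at 34.4, 36.2, 66.3 and 122 in untreated and at 39.4, 36.4, 73.2 and 147 in calcitriol members. The 13 mitochondrially encoded genes summed to 26782, 14902, 19514 and 21142 CPM and to 22126, 10814, 12929 and 22739 CPM, with 0 of 8 measured genes past 2-fold in either direction. The stroma and osteoblast markers had 1354, 655, 863 and 526 CPM in the untreated classes and 2259, 1367, 922 and 3505 CPM in the calcitriol ones. Most of the 273 UMIs of this list in the highest calcitriol class were in 1 barcode, and without it the class was at 995 CPM. Their part in those sums was not tested.

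**Figure D4:**
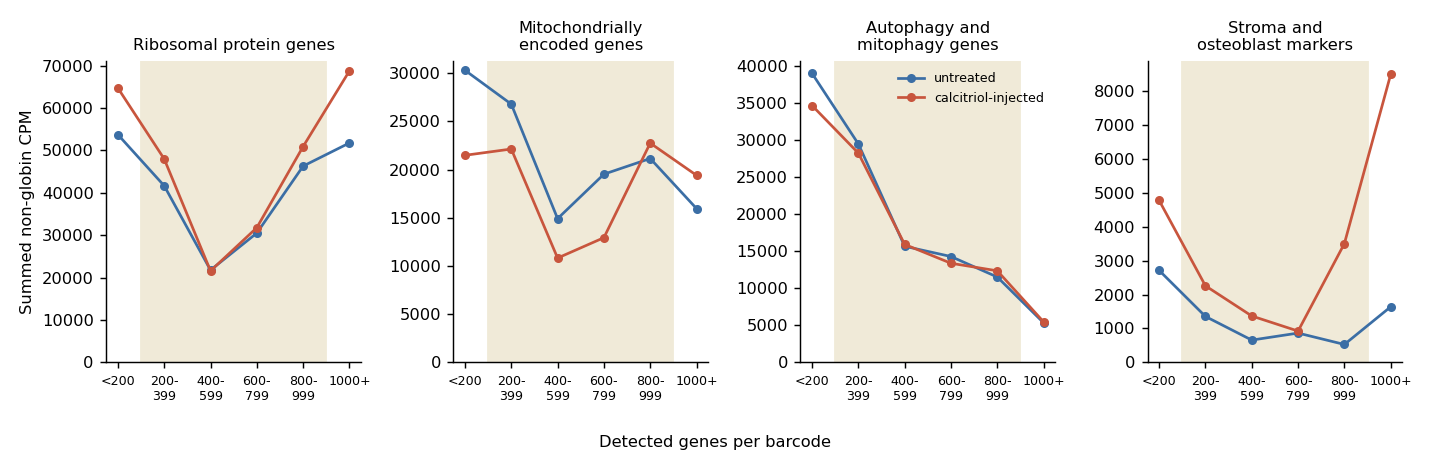
Summed non-globin CPM (vertical axes, each from 0) of 4 gene lists over the gene number of globin-rich barcodes, untreated in blue and calcitriol-injected in red; shaded classes are the members. Ribosomal protein genes have their minimum at the class from 400 genes in both libraries, and autophagy genes climb towards few genes. Stroma markers are highest among the member classes in the highest calcitriol class (3505 CPM), where most of their UMIs were in 1 barcode.

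Of 12 measured genes of the haem list, *Alas2*, *Slc25a39* and *Iscu* were higher with few genes in both libraries and 5, among them *Uros*, *Cpox*, *Ppox* and *Tmem14c*, were lower, while 4 passed in neither direction, beside 10.5% higher and 26.3% lower among all measured genes. The list's median log2 ratio of 0.21 in untreated and 0.019 in calcitriol members came to -1.23 as the mean of both with at least 20 UMIs, and to between -1.72 and -1.37 when the lowest and highest 25% of members by 3 other measures were compared, which also changed the genes measured. The cytosolic step *Uros* (30.3 against 538 and 36.7 against 578 CPM) and the mitochondrial steps *Cpox* (170 against 1725 and 227 against 719 CPM) and *Ppox* (157 against 634 and 125 against 732 CPM) were lost with few genes. *Fech*, ferrochelatase at the end of the path, had ratios of 0.91 and 0.63 and passed in neither direction. Of 6 iron genes *Ftl1* and *Ncoa4*, the ferritin autophagy receptor, were higher, and *Tfrc*, the transferrin receptor, was lower (276 against 2482 and 308 against 2273 CPM).

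In the membrane and skeleton list 2 of 19 measured genes, *Epb41* (protein 4.1) and *Mpp1*, were higher and 9 lower, beside 10.5% higher and 26.3% lower over all genes, with list medians of -1.06 and -1.19 against -0.14 and -0.20 over all genes. The lower ones were *Slc4a1*, the anion exchanger band 3 (3570 against 7424 and 4012 against 9283 CPM), *Ank1*, ankyrin (90.8 against 492 and 139 against 462 CPM), *Rhag*, the Rh-associated glycoprotein (112 against 1068 and 95.3 against 924 CPM), *Rhd*, *Kel*, *Add1*, *Add2*, *Ermap* and *Cd47*.

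Of all 495 measured genes 10.5% were higher and 26.3% lower with few genes in both libraries. Of 7 measured autophagy and mitophagy genes, *Bnip3l*, the mitophagy receptor of reticulocytes (11986 against 3704 and 11001 against 3993 CPM), *Map1lc3b* (7210 against 2659 and 6776 against 2671 CPM) and *Gabarapl2* were higher and *Rb1cc1* lower. The list's median log2 ratio of 0.93 in untreated and 0.79 in calcitriol members came to 0.044 as the mean of both with at least 20 UMIs and to -0.14 when the members were divided by their number of alternate genes, which also changed the genes measured. The list's summed level was 29452.5, 15649, 14267 and 11501 CPM from the lowest to the highest untreated class and 28213, 15901, 13357 and 12339 CPM in calcitriol. Of 16 ubiquitin and remodelling genes *Ubb*, *Ube2l6*, *Ube2c*, *Mkrn1* and *Rnf10* were higher and 4 lower, among them *Trim58*, *Ubac1* and *Herc1*. *Cat*, catalase (log2 ratios of 1.503 and 1.37), and *Gpx1* were the 2 higher of 4 antioxidant genes, with none lower. On the per-barcode scale all of these but *Gabarapl2* were lower with few genes, or of unlike sign, in the libraries.

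Of 7 measured erythroid regulators *Nfe2*, *Foxo3* (203 against 630 and 264 against 745 CPM), *Klf3* and *Eif2ak1* (524 against 1837 and 301 against 1810 CPM) were lower and none higher, beside 10.5% higher and 26.3% lower among all measured genes. Of 3 measured cycle genes *Mki67* and *Hmgb2* were lower, but *Ube2c*, a conjugating enzyme of the anaphase-promoting complex, was higher (3915 against 1537 and 2985 against 706 CPM). In the list of late and enucleation genes 5 of 26 were higher (among them *Tent5c*, *Ucp2*, *Ncoa4*, *Epb41*) and 10 lower. *Hspa5*, *Btg2* and *Nfkbia* were the 3 lower of 4 measured dissociation-stress genes.

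The lost transcripts were longer. The longest protein-coding transcript, or the longest of any kind where none is coding, had a median length of 3687 bases (interquartile range 2084.75 to 5864) for the 130 genes lower with few genes, 2114 bases (1456.75 to 3294.25) for the 52 higher and 1920 for the 313 that passed in neither direction. Median GC content was 48.5%, 50.1% and 50.1%. All 495 genes had a value in GENCODE M21. The median CPM of the sets also differed, at 692, 1741 and 577, and no test was made on these sets. Ribosomal protein genes were 3 of the 130, 0 of the 52 and 59 of the 313, and lengths were not compared without them.

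Globin-rich barcodes with 1000 or more genes were set beside the members as well. *Cdk1*, the mitotic kinase, was at 27.1 against 1005 CPM in untreated and 6.19 against 721 CPM in calcitriol barcodes, *Fbxo5*, an inhibitor of the anaphase-promoting complex, at 14.7 against 828 and 4.13 against 516 CPM, and *Tacc3*, *Neil3*, *Cmc2*, *Pclaf*, *E2f8* and *Racgap1* were the others with the lowest ratios. All 8 had 1 to 3 UMIs in calcitriol members, so their ratios are loose there, and 10 to 59 UMIs in untreated members, and at such counts a gene is measured through the barcodes in which it is high. The highest log2 ratios were those of *Calcrl* (32.1 CPM against 0 UMIs and 113 CPM against 1 UMI), *Bpgm* (4.29 and 3.23), *Tcp11l2* (4.27 and 3.001), *Xpo7* (4.03 and 3.13), *5830448L01Rik*, *Prxl2a*, *Mllt3*, a chromatin reader, and *Eif5*, a translation initiation factor (3.43 and 3.45).

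Calcitriol-injected mice were compared with untreated mice to ask whether the members differ with treatment. As counts, members were 22.1% of untreated and 7.17% of calcitriol barcodes, globin-rich barcodes under 200 genes 20.4% and 8.99%, and those with 1000 or more genes 9.56% and 1.12%. Flushing of marrow and the removal of CD45-positive cells come before these shares, and treatment and library cannot be told apart. Over all members 2450 genes had at least 50 UMIs in the 2 libraries together. Of these 120 (4.9%) were at least 2-fold higher in calcitriol and 250 (10.2%) at least 2-fold lower, with a median log2 ratio of -0.13. Since the calcitriol members lie more in the lowest class, the classes were also weighted equally, which gave 137 higher and 254 lower genes, of which 110 and 205 were among the first.

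Levels over all members are given first for the most abundant transcripts. *Bpgm* was at 14970 CPM in untreated and 16025 CPM in calcitriol members, *Alas2* at 12962 and 14354, *Mkrn1* at 12055 and 12749, *Tmcc2* at 11616 and 13684 and *Prdx2*, a peroxiredoxin, at 12959 and 12001 CPM. With the classes weighted equally *Bpgm* had a log2 ratio of -0.11 in place of 0.10 and *Alas2* of -0.04 in place of 0.15. Within the classes *Tmcc2* was at 1629, 15455, 13460 and 6974 CPM in untreated and 1027, 22040, 18912 and 13481 CPM in calcitriol members, so that it was lower in calcitriol in the lowest class and higher in the other 3. With a low class under 300 genes, its log2 ratio to the highest class was -3.75 in untreated and -4.26 in calcitriol members. This puts *Tmcc2* higher in calcitriol there too, so the lower level in the lowest class depends on members near its upper limit. *Ubb* was higher in calcitriol, at 24045 against 39123 CPM, a log2 ratio of 0.70 (0.68 to 0.73), and *Gm42418*, a gene model over ribosomal RNA sequence, at 17841 against 24040 CPM. *Car2*, carbonic anhydrase 2, was lower, at 19867 against 14003 CPM (-0.50, -0.54 to -0.47), as were *Fth1* (10135 against 7630 CPM) and *Malat1* (48867 against 38574 CPM). The log2 ratio of *Malat1* was -2.23 within the lowest class, which holds more of the calcitriol members, -0.087 from 400 genes on and -0.038 with the 4 classes weighted equally. In the lowest class 26 of 400 untreated and 3 of 166 calcitriol members held 3% or more *Malat1*, and under 300 genes 2 of 331 and 1 of 136. With a low class under 300 genes, the log2 ratio of *Malat1* to the highest class was -6.30 in untreated and -5.59 in calcitriol members. This puts it higher in calcitriol there, so the direction within the lowest class depends on members near its upper limit.

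The 10 highest ratios of calcitriol over untreated were those of *Trib3*, *Atf5*, *Cebpb*, *Eprs*, *Mt1*, *Prg4*, *Eif4ebp1*, *Shmt2*, *Mt2* and *Chad*. Apart from *Mt1*, *Prg4* and *Mt2*, these genes had fewer than 50 UMIs in untreated members, so they were measured only because of their UMIs in calcitriol members, where they are high. ATF4, of which several of these genes are known targets, is a transcription factor that cells make when the initiation factor eIF2alpha is phosphorylated, and it turns on genes of amino acid supply and tRNA charging. *Trib3*, a pseudokinase, was at 2.30 CPM (5 UMIs in 4 members) in untreated and 134 CPM (65 UMIs in 35 members) in calcitriol members, a log2 ratio of 5.87 (4.57 to 7.54). In barcodes with less than 50% globin it was at 5.80 and 6.02 CPM. *Atf5* was at 7.35 against 153 CPM (4.38, 3.58 to 5.26), *Cebpb* at 11.02 against 163 CPM (3.89, 3.21 to 4.61), *Eprs*, glutamyl-prolyl-tRNA synthetase, at 6.43 against 92.8 CPM (3.85, 2.96 to 4.83), *Eif4ebp1* at 19.3 against 155 CPM (3.004, 2.44 to 3.59) and *Shmt2*, mitochondrial serine hydroxymethyltransferase, at 10.1 against 72.2 CPM (2.84, 2.03 to 3.68). A list of ATF4 target genes was put together after these values had been seen and is no independent evidence. Of its 16 measured genes 11 were higher, which that choice made likely, and 0 lower, beside 4.9% higher and 10.2% lower over all 2450 genes, among them *Asns*, asparagine synthetase (106 against 493 CPM), *Ddit3*, which encodes CHOP (77.1 against 396 CPM), and *Slc7a5*, an amino acid transporter (140 against 324 CPM). The list's median log2 ratio was 1.59, against -0.13 over all genes. *Sars* (69.3 against 293 CPM), *Aars* and *Gars* with *Eprs* were the 4 higher of 7 measured tRNA synthetases, and *Hars* was lower.

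The next shares describe in how many members these UMIs lay. Their 9 genes were chosen for their higher level in calcitriol, so the direction was fixed by the choice, and the intervals cover counting error within 1 library each. At least 5 UMIs of *Trib3*, *Atf5*, *Asns*, *Sars*, *Eprs*, *Eif4ebp1*, *Ddit3*, *Cebpb* and *Shmt2* together were found in 24 of 1341 untreated (1.79%, 1.15 to 2.65) and 82 of 327 calcitriol members (25.1%, 20.5 to 30.1). From the lowest to the highest class the shares were 0.25%, 2.53%, 1.91% and 4.04% in untreated and 4.82%, 40.3%, 47.2% and 55.6% in calcitriol members. With every barcode thinned to 3000 UMIs, leaving out 11 and 8 shallower members, at least 1 UMI was found in 10.9% of untreated (9.28 to 12.7) and 41.4% of calcitriol members (35.9 to 47.0), against 25.4% and 58.4% unthinned, at median depths of 9912 and 10032 UMIs. The summed level of the 9 genes was 309 against 1951 CPM in members, 82.9 against 345 CPM under 200 genes and 610 against 1853 CPM from 1000 genes on. In barcodes with less than 50% globin it was 1023 against 1106 CPM. Of those genes *Cebpb*, at 458.0 and 676 CPM, and *Eprs*, at 178 and 138 CPM, were more abundant in the barcodes with less than 50% globin than in members.

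**Figure D5:**
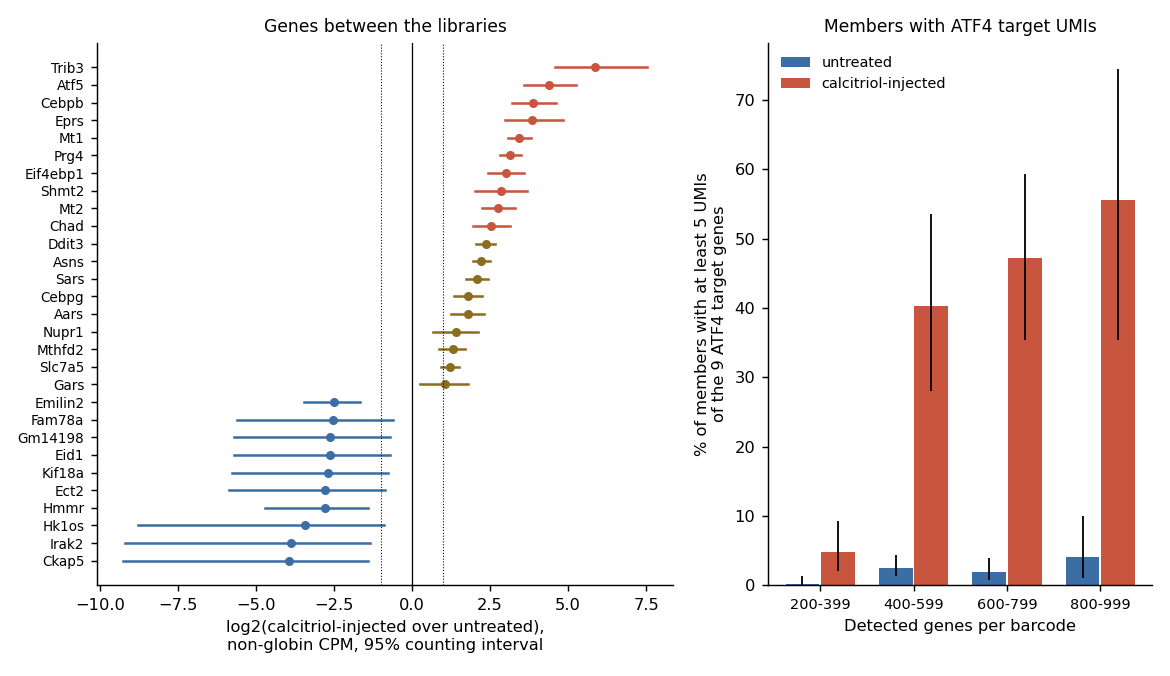
Left, log2 ratio of calcitriol-injected over untreated members in non-globin CPM with 95% counting intervals for the 10 highest (red) and 10 lowest (blue) genes and 9 further genes of the ATF4 programme and tRNA charging, chosen after their values had been seen (ochre); dotted lines mark 2-fold. Right, percentage of members with at least 5 UMIs of 9 ATF4 target genes by gene number with 95% exact intervals. These 9 genes were chosen for their higher level in calcitriol, so the direction was fixed by the choice. Calcitriol members reach 40.3% or more from 400 genes on and untreated members stay at 4.04% or less.

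Metallothionein, cartilage and bone transcripts made up another group that was higher in calcitriol members. *Mt1* was at 43.2 against 466 CPM (3.43, 3.08 to 3.80), *Mt2* at 23.9 against 161 CPM, *Prg4*, lubricin, at 51.0 against 452 CPM and *Chad*, a cartilage matrix protein, at 20.7 against 120 CPM. In barcodes with less than 50% globin *Mt1* was at 2213 and 6498 CPM and *Prg4* at 5779 and 16857 CPM. Over all 2450 measured genes 4.9% were higher and 10.2% lower. Of the stroma and osteoblast list 6 of 9 measured genes were higher, among them *Spp1*, osteopontin (97.3 against 468 CPM), and *Sparc* (223 against 483 CPM), and of the cartilage list *Prg4*, *Cytl1* and *Chad* of 5. One calcitriol barcode with 919 genes held 213 UMIs of the bone, cartilage and vessel lists and 117 of *Mt1*. Without it *Mt1* was at 226 CPM and *Mt2* at 102 CPM. The early response genes *Jun*, *Junb*, *Fosb*, *Egr1*, *Ier2* and *Ier3* were the 6 higher of 17 dissociation-stress genes, with *Jun* at 57.4 against 144 CPM in members and 1130 against 1404 CPM in barcodes with less than 50% globin, and *Hsph1* and *Dnajb1* were lower, a share near that of all genes. The median of that list, 0.46, was -0.87 in the lowest class and -0.46 in members without marker UMIs. Of 5 measured glucocorticoid-response genes *Mt1*, *Mt2*, *Errfi1* and *Tsc22d1* were higher. How far RNA of other cells makes up these differences was not tested.

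Over all 2450 measured genes 10.2% were lower in calcitriol members. Of 21 measured cycle genes none was higher and 11 were lower, with a list median of -1.14, which was -0.13 in members without a UMI of bone, cartilage or vessel markers (329 untreated, 25 calcitriol): *Top2a* (75.3 against 24.8 CPM), *Ccnb1*, *Ccnb2*, *Ccna2*, *Cdk1*, *Rrm2*, *Birc5* (215 against 63.9 CPM), *Cenpa*, *Cenpf* (314 against 92.8 CPM), *Kif11* and *Tpx2*. Summed over the list the untreated classes were at 4778.5, 3846, 5216 and 14517 CPM and the calcitriol classes at 3616, 3117, 3844 and 3852 CPM, so that the gap was widest in the highest class. *Klf1* (123 against 41.3 CPM), *Tal1* (163 against 59.8 CPM), *Lyl1* and *Epor*, the erythropoietin receptor (70.2 against 33.0 CPM), were the 4 lower of 17 erythroid regulators, with none higher. The regulator list summed to 13794 against 11679 CPM over all members, and more of the calcitriol members lie in the lowest class. From the lowest to the highest class it was at 8830, 14856, 14862 and 13591 CPM in untreated members. In calcitriol members it was at 7407, 13998, 13200 and 12801 CPM. Of 7 measured genes of the early erythroid list *Npm1* was higher and *Hsp90ab1* and *Rrm1* were lower, while genes with no UMI in members included *Kit*, *Myb* and *Gfi1*. The 10 lowest ratios, *Ckap5*, *Irak2*, *Hk1os*, *Hmmr*, *Ect2*, *Kif18a*, *Gm14198*, *Eid1*, *Fam78a* and *Emilin2*, rested on 1 to 12 UMIs in calcitriol members and reached the UMI minimum mainly through the untreated members, where they are high. *Emilin2*, an extracellular matrix glycoprotein, was the best counted of them, with 303 against 12 UMIs, or 139 against 24.8 CPM (-2.49, -3.46 to -1.66).

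Of 22 listed genes known from the vitamin D response, 10 had no UMI in members. Of the 12 detected, 4 had enough UMIs to be compared between the libraries. *Vdr*, the vitamin D receptor, *Cyp24a1*, *Cyp27b1*, *Tnfsf11*, *Trpv6* and *Fgf23* were at 0 UMIs in both libraries, which at 3 counts allows up to 1.38 CPM in untreated and 6.19 CPM in calcitriol members. *Spp1*, given above with the bone genes, was the 1 of 4 measured genes of the list that was higher, and none was lower, beside 4.9% and 10.2% over all 2450 genes. The list's summed level was 2215 CPM over all members of each library. Within the classes it was higher in calcitriol, at 917, 3232, 2627 and 2247 CPM from the lowest to the highest against 615, 2786, 2530 and 1549 CPM in untreated members, and more of the calcitriol members lie in the lowest class. It was also 1611 against 477 CPM under 200 genes, 4158 against 710 CPM from 1000 genes on and 15880 against 7435 CPM in barcodes with less than 50% globin. Single genes did not all follow these sums. In the lowest class and the class from 400 genes, *Mxd1*, the most abundant of the list, was lower in calcitriol. It was at 213 against 236 and 1291 against 1493 CPM, and *Dyrk3* was at 36.7 against 130 and 1348 against 1173 CPM. The list holds *Spp1*, of which 1 calcitriol barcode with 919 genes had 32 UMIs. Its part in the sums was not tested.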

How the data were processed

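Per the labels and the study's methods, the authors made the deposited UMI count matrices with Cell Ranger 4.0.0 on mm10 from 10x 3′ v3.1 libraries and analysed them with Seurat 3.2.2, leaving out barcodes under 200 genes. The annotation release is not given in the sources used here. Library totals were 70266983 (untreated) and 60392557 UMIs (calcitriol). Of 32285 features, 40 symbols occurred repeatedly and kept the symbol on the row with most UMIs.

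UMIs were summed over members per library and class in Python 3.11.15 (pandas 2.3.3, numpy 2.4.6), with intervals from scipy 1.17.1 and figures from matplotlib 3.10.9, and scaled to non-globin UMIs. Ratios have 95% exact intervals conditional on the sum of both counts, and shares 95% exact binomial (Clopper-Pearson) intervals. These cover counting error only. A gene was measured at 50 UMIs or more and counted at 2-fold. A count of 0 was replaced by the floor of 3 counts to give a bound. Barcodes were thinned to 3000 UMIs for shares. Scripts were tested on simulated data.

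The genes named by rule were the 15 most abundant, the 12 highest and 12 lowest mean ratios by gene number, the 10 highest and 10 lowest between libraries, the 8 highest and 8 lowest against 1000 or more genes, the 5 chosen markers, and members of the gene lists. The members and lists were chosen with earlier results of these data known, and the ATF4, tRNA synthetase and interferon lists and the grouping by course after the values had been seen. Of the interferon list, *Isg20* was higher with few genes among 6 measured genes, and *Bst2* was higher in calcitriol among 11, beside 10.5% and 4.9% over all genes. Some items are not reported here.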

Additional observations from a re-analysis of the deposited data

How the results depend on the processing

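Of 466 values recomputed under other settings, 298 stayed within the error of the value, or for counts within 1.5 times, and 168 did not. The sign was the opposite one in 38, of which 31 are list medians and 7 single genes, and apart from *Alas2*, below, their reported values were all under 2-fold. Scaling to all UMIs left 1 gene higher and 369 lower with few genes, since the median over genes shifted to -1.93 (log2), and turned *Alas2* from 1.77 to -0.020 as the mean of both libraries. UMIs per barcode, added after seeing the data, left 1 higher and 362 lower, with a shift to -1.88. On these scales (all UMIs, then per barcode) the list medians were -1.68 and -1.63 for haem, -2.92 and -2.87 for membrane, -0.93 and -0.88 for autophagy, -1.48 and -1.43 for ubiquitin, -3.36 and -3.31 for erythroid regulators, -1.73 and -1.68 for late and enucleation genes, -2.01 and -1.97 for ribosomal protein and -1.64 and -1.59 for mitochondrial genes. With at least 20 UMIs, which takes in more genes, 325 were lower with few genes, 276 higher and 508 lower in calcitriol, and the haem and autophagy medians were -1.23 and 0.044. The lowest 25% of members against the highest 25% gave further values. By non-globin UMIs 260 genes were lower, with haem at -1.37, autophagy at -0.32, ubiquitin at -0.19 and ribosomal protein genes at 0.35. By gene number at 3000 UMIs 274 were lower, with haem at -1.72, membrane at -1.91, autophagy at 0.065 and regulators at -2.11. By gene number over the alternate genes 280 were lower, with haem at -1.69, membrane at -1.94, autophagy at -0.14, ubiquitin at -0.071 and mitochondrial genes at 0.39. These divisions also changed the genes measured (633, 612 and 647 in place of 495), so that division and genes measured cannot be told apart. Chosen after seeing the data, a high class from 400 genes gave haem 0.38, ubiquitin -0.23, ribosomal protein 0.99 and mitochondrial genes 1.08, and a low class under 300 genes gave haem 0.41.

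Between the libraries, weighting the classes equally gave a haem median of -0.27. In the lowest class alone, where 619 genes were measured, 26 genes were higher and 48 lower in calcitriol, of which 16 and 6 are among the 120 and 250 reported, and the medians were 0.039 for membrane, -0.87 for dissociation stress and 0.64 for stroma. Members without a UMI of bone, cartilage or vessel markers (329 untreated, 25 calcitriol) gave 70 higher and 174 lower genes, of which 13 and 30 are among those reported, and medians of -0.13 for the cell cycle and -0.46 for dissociation stress, while *Asns* was at 2.90. Other than fewer genes and barcodes, the causes were not tested. With a globin share of at least 40% or 60%, 1364 or 1320 untreated and 330 or 323 calcitriol barcodes were members. No paired analysis was possible because each group is 1 library, and for the same reason no replicate could be left out.

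Depth limits the calcitriol side, whose 327 members hold fewer UMIs than the 1341 untreated ones. Genes under 4 UMIs there have ratios with wide intervals. For genes at 0 UMIs there, the floor used as a bound allows up to 6.19 CPM.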

Other observations

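The calcitonin receptor-like receptor gene *Calcrl* was at 32.1 CPM in untreated and 113 CPM in calcitriol members. In the globin-rich barcodes under 200 genes it was at 59.9 and 82.4 CPM, and in the barcodes with less than 50% globin at 21.9 and 21.8 CPM. Of the interferon-related list, which was led by *Rsad2*, the summed level was 17748 CPM in untreated and 20293 CPM in calcitriol members against 1435 and 1129 CPM in the barcodes with less than 50% globin.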
